A study of Mus musculus with 4 samples.

Results

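Organoids grown from small intestinal crypts were compared with crypt cells taken directly from the gut and sorted as non-EGFP. The comparison used 11 of the 22 libraries of the series, 6 of control organoids and 5 of non-EGFP cells, chosen by the treatment and the EGFP gate that the deposited sample sheets give for each library. The methods give the age of all mice used as 2 to 10 months. Control organoids came from wild-type C57BL/6J mice, in 3 experiments with 2 libraries each, and the sheet marks their source as prox. They were grown in Matrigel for 4 days with EGF (50 ng/ml), Noggin (100 ng/ml), R-spondin 1 (250 ng/ml), n-acetylcysteine and, for the first days, Y-27632 (10 µM), and received no GDNF. RNA was then extracted from whole organoids on columns. The non-EGFP cells came from the crypts of 3 male RetEGFP/+ mice, in which EGFP is expressed from the Ret locus, and the labels give their genotype as WT. Each of these libraries held 1000 cells that fell outside the EGFP gate, set on crypt cells of a control without EGFP. The cells were sorted into RNAlater and mixed with lysis buffer, and oligo-dT beads were then added. The mouse of each sorted library and the gut region were not given in the sources used here. Culture, genotype, RNA preparation and sequencing pool therefore differed together between the groups and cannot be told apart. Gut region may have differed with them. The sorted cells came from male mice only, while the methods give organoid mice of both sexes. The non-EGFP gate also takes out cells that transcribe Ret, while organoids were not sorted, so such cells were removed from 1 side only.

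The small intestinal epithelium is renewed from stem cells at the crypt base, which divide in response to Wnt and EGF signals. Their daughters become absorptive enterocytes or secretory cells. Paneth cells stay at the crypt base and release alpha-defensins and lysozyme, goblet cells release mucus, enteroendocrine cells release hormones, and tuft cells sense luminal signals and call on immune cells. In the animal this epithelium lies between luminal microbes and bile on one side and lymphocytes, mast cells and stroma on the other. Organoids in Matrigel keep the epithelium alone, with growth factors supplied in the medium.

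Total counts were 1106882 to 1983259 (median 1276396.5, 12160 to 13274 genes detected) per organoid library and 1113006 to 4717549 (median 3296887, 10031 to 12776 genes detected) per non-EGFP library. Organoid libraries correlated with each other across genes at Pearson's r of 0.939 to 0.972 on the log scale and non-EGFP libraries at 0.823 to 0.929, while pairs from different groups gave 0.744 to 0.840. Between 8.34 and 10.3% of the counts of an organoid library and between 26.3 and 45.9% of those of a non-EGFP library fell on its 10 leading genes. In the non-EGFP libraries 15 values exceeded the number of sequences that a molecular identifier of 8 nucleotides can take, so those counts are not distinct identifiers, and no organoid value did. The study's methods give experiments 1 and 2 as female and experiment 3 as male. The libraries labelled experiment 1 carried 0.698 and 0 CPM of Xist, the transcript that silences an X chromosome in females, and 13.3 and 19.98 CPM of Ddx3y, a Y-linked gene. Experiment 2 carried 291 and 292 CPM of Xist and 0 CPM of Ddx3y, so that the sex stated for experiment 1 goes against its counts. Values after ± are SDs over 6 organoid or 5 non-EGFP libraries, and SE is the standard error of a log2 fold change. Levels are in CPM throughout, that is counts brought to 1 library size with TMM factors of the 11 libraries.

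Of 12604 genes tested, 1017 (8.07%) were higher and 1076 (8.54%) lower in organoids, which makes 2093 (16.6%) called in either direction. A gene was called at an adjusted p under 0.1 from edgeR and a log2 fold change of at least 2 in size, a limit of 4-fold chosen because the preparations differ. All genes tested had a median log2 fold change of 0.03. Without the fold limit 25.1% of genes were higher and 24.4% lower (49.5% in all). This split depends on the scaling. With total counts alone 2787 genes were higher and 457 lower, and the all-gene median was 1.02. Fold changes of around 2-fold are therefore not described as differences here, and gene groups are read against the all-gene median. Without the libraries labelled experiment 1 the counts were 866 higher and 1003 lower. In bulk libraries fewer cells of a type and less RNA per cell cannot be told apart.

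**Figure D1:**
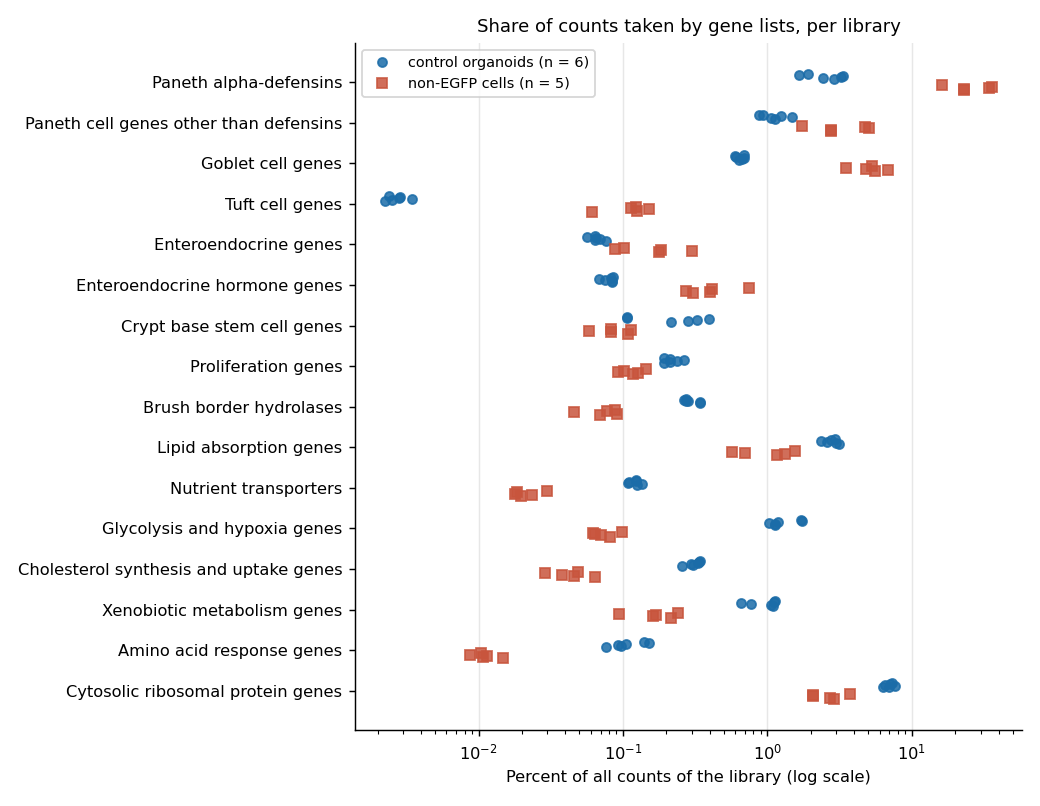
Percent of all counts of a library taken by each gene list (log scale), with 6 control organoid libraries as blue circles and 5 non-EGFP libraries as red squares. Defensins took 1.65 to 3.36% in organoids and 16.3 to 36.1% in non-EGFP cells, and glycolysis and hypoxia genes 1.03 to 1.73% against 0.0625 to 0.0988%.

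Paneth cell transcripts were the largest part of the non-EGFP libraries and a small part of the organoid ones. Alpha-defensins, the antimicrobial peptides of Paneth granules, took a median of 2.66% of counts in organoids and 23.1% in non-EGFP cells, and none of the 15 tested was higher in organoids. Of these 15, 11 were lower, against 8.54% of all genes, and their median log2 fold change was −3.80. Defa24 (chromosome 8, 21734494 to 21735471, GRCm38) lay at 8535, 12676 and 15331 CPM (lowest, median and highest) in organoids. The 5 non-EGFP libraries held 231469, 258022, 450108, 395300.0 and 195241 CPM of it. Every organoid library lay far below every non-EGFP library (log2 fold change of −4.62, SE 0.32, edgeR adjusted p = 4.44e-10), while Defa24 ranked 1 or 2 among the genes of every library. Defa21 fell further, from a mean of 9053 ± 5365 CPM in non-EGFP cells to 65.4 ± 21.3 CPM in organoids, a log2 fold change of −7.12. Defa17 was not called, with 2253 ± 835 CPM in organoids and 5128 ± 1571 CPM in non-EGFP cells (log2 fold change of −1.19, SE 0.26, edgeR adjusted p = 0.00104). Reads of near-identical defensin genes may have been shared among them, so single members are uncertain and their sum is the firmer value, at 18927 ± 4696 CPM (SD, n = 6) for organoids against 386588 ± 140141 CPM (SD, n = 5) for the non-EGFP group.

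The defensin-like genes AY761184 and Gm14851 also fell, by log2 fold changes of −5.15 and −5.23. Other Paneth genes differed less than the defensins. Of 10, 5 were lower and 0 higher, beside 8.54% of all genes lower. The list had a median of −2.01 and took 1.09% of organoid and 2.78% of non-EGFP counts (medians). Lyz1, which encodes lysozyme, lay at 1745, 2224 and 2843 CPM in organoids and at 14772, 11904, 21355, 20674 and 4358 CPM in non-EGFP cells (log2 fold change of −2.72, SE 0.30, edgeR adjusted p = 3.4e-07). Its groups did not overlap, and non-EGFP library 5 was the lowest of its group. Mptx2, a pentraxin of Paneth cells, was lower by −3.89, and by −2.88 without non-EGFP libraries 3 and 4, its highest. Mmp7, the protease that activates defensins, was at 219.6 ± 50.3 CPM against 741 ± 222 CPM and was not called (log2 fold change of −1.75, SE 0.22, edgeR adjusted p = 2.13e-06). Itln1, an intestinal lectin, passed at −2.03, at the edge of the limit, and lost the call without non-EGFP library 3 (−1.77), without non-EGFP library 4 (−1.95) or without organoid library 5 (−1.98). Transcript length moved with the fold change over all genes. The 650 genes with a median transcript under 600 bases had a median log2 fold change of −0.84, with 31 higher and 147 lower, and those of 2000 to under 4000 bases one of 0.31. The tested defensins had a median length of 398 bases, and the part of transcript length in their result was not tested.

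Goblet cell genes were lower in organoids almost throughout. Of 18, 15 were lower and 0 higher, beside 8.54% of all genes lower. The list had a median of −3.46, and its share of counts was 0.654% in organoids and 5.32% in non-EGFP cells (medians). Muc2, the gel-forming mucin of intestinal mucus (chromosome 7, 141690340 to 141754693), lay at 20.6, 34.7 and 48.8 CPM in organoids. In non-EGFP cells it lay at 2377, 3527, 2249, 1374 and 1537 CPM, so that the lowest sorted library exceeded the highest organoid library many times over (log2 fold change of −5.97, SE 0.29, edgeR adjusted p = 6.68e-12). Spink4, a protease inhibitor of goblet granules, remained abundant in organoids at 2201 ± 359 CPM but stood at 41590.1 ± 9781 CPM in non-EGFP cells (log2 fold change of −4.24, SE 0.24, edgeR adjusted p = 3.69e-11). Tff3, the trefoil peptide secreted with mucin, differed by −3.47. Clca1 and Zg16, both secreted with mucus, differed by −6.05 and −4.42. Clca1 was at 45.5 and 51.6 CPM in organoid experiment 3 and at 6.04 to 9.25 CPM in the other organoids. Atoh1, the transcription factor that commits progenitors to the secretory lineage, was lower by −2.45, from 36.2 ± 5.51 CPM to 6.58 ± 2.405 CPM. Spdef, a factor of goblet and Paneth maturation, was not called at −1.60 (adjusted p = 0.00202, edgeR), and its groups overlapped.

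Tuft cell transcripts were at or near 0 in organoids. All 17 tested of 18 genes were lower, beside 8.54% of all genes. Of these, 3 had 0 counts in organoids and passed the filter only through the non-EGFP libraries, which fixed their direction. The median was −5.68, or −5.49 with these 3 set at their bound. The list took 0.00267% of organoid and 0.123% of non-EGFP counts (medians). Rgs13, a regulator of G protein signalling and a tuft marker, lay at 1.82, 3.800 and 6.04 CPM in organoids and 343, 782, 1030.3, 784 and 536 CPM in non-EGFP cells (log2 fold change of −7.45, SE 0.33, edgeR adjusted p = 2.67e-12). All organoid libraries were low, and among sorted libraries non-EGFP library 1 was the lowest. Non-EGFP library 1 was also lowest for Alox5ap, which helps make leukotrienes in tuft cells, at 77.5 CPM against 161 to 193 CPM, while no organoid library exceeded 2.43 CPM. Sh2d6 had 2 counts over all organoids and was 361-fold higher in non-EGFP cells (95% exact counting interval 99.6 to 2989, counting error only). The kinase gene Bmx, among the 10 largest falls, likewise had 2 counts in organoids, a ratio of 666 (184 to 5502). Dclk1, a kinase, and Trpm5, the cation channel of taste signalling, fell by −5.69 and −5.77.

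Enteroendocrine transcripts were lower in organoids than in the non-EGFP cells, which were gated to leave out EGFP+ cells. Hormone genes took 0.0683 to 0.0853% of counts in organoids and 0.274 to 0.744% in non-EGFP libraries. In the Ret-EGFP+ libraries of the same plates they took 26.2 to 30.7%. How fully the gate separated the sorted groups was not tested. Of 16 general enteroendocrine genes 11 were lower and 0 higher (median −2.65), beside 8.54% of all genes lower. Of 11 hormone genes tested 7 were lower and 0 higher (median −2.44). With total counts alone 6 and 5 were lower, beside 457 of 12564 genes tested on that scale. Neurod1, a transcription factor of this lineage, lay at 1.65, 4.19 and 5.46 CPM in organoids and 28.7, 30.3, 48.04, 32.8 and 24.98 CPM in non-EGFP cells (log2 fold change of −3.02, SE 0.34, edgeR adjusted p = 3.8e-07). The granule protein gene Chgb was at 373 ± 50.9 CPM and 1980.5 ± 1118 CPM (−2.41). Chga, its relative, was not called at −1.95 (adjusted p = 0.000177, edgeR), and non-EGFP library 4 held 37.7 CPM, within the organoid range. Among hormones, Ghrl, which encodes ghrelin, lay at 41.5, 55.96 and 73.3 CPM in organoids and 985, 1357, 1777, 2114 and 3408 CPM in non-EGFP cells (log2 fold change of −5.08, SE 0.29, edgeR adjusted p = 3.41e-11). Pyy, the peptide YY of distal enteroendocrine cells, was lower by −6.37. Sst, which encodes somatostatin, held 13.8, 1268, 9.05, 429 and 1267 CPM in the non-EGFP libraries. Libraries 1 and 3 of these lay within or near the organoid range of 9.33 to 19.5 CPM, the other 3 far above it. Cck, which encodes cholecystokinin, was not called (−1.68, adjusted p = 1.67e-05, edgeR).

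Ret, the receptor tyrosine kinase of GDNF, was near the limit of detection in both groups. Its level was 0.698, 1.84 and 3.93 CPM in organoids and 0, 0.893, 0.696, 2.43 and 1.78 CPM in non-EGFP cells (log2 fold change of 0.83, SE 0.91, edgeR adjusted p = 0.493), so that no difference was detectable at this depth. Of its co-receptors 1 of 4 passed the filter. This was Gfra3, the receptor for artemin, at 3.22 ± 1.82 CPM in organoids and 12.7 ± 3.92 CPM in non-EGFP cells, just short of the fold limit at −1.95 (adjusted p = 0.00206, edgeR).

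**Figure D2:**
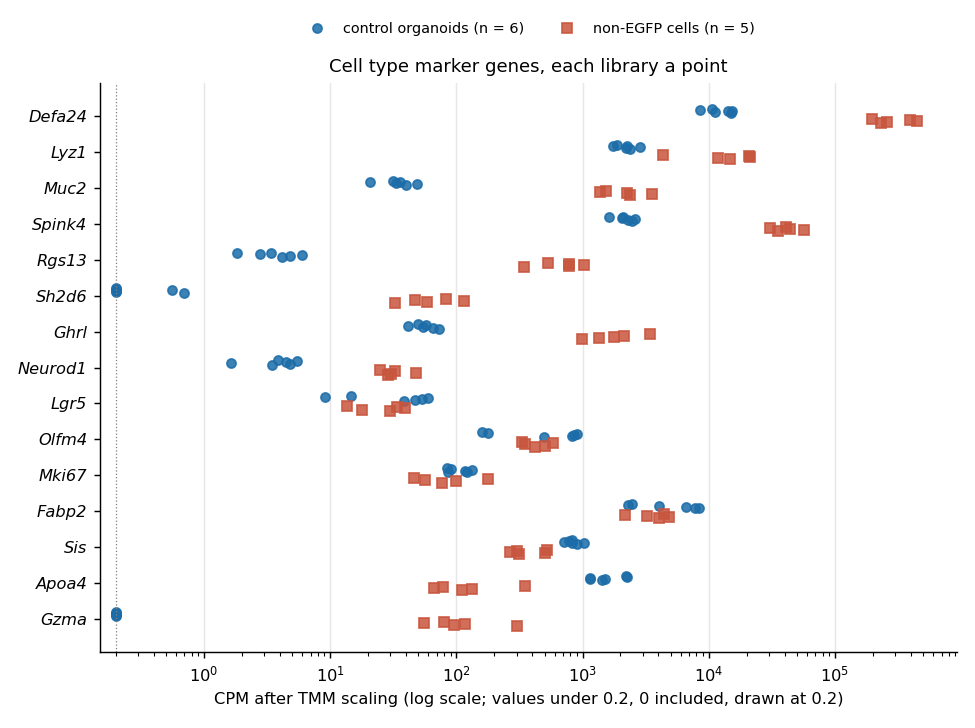
CPM of cell type marker genes on a log scale, 1 point per library (blue circles, 6 control organoid libraries; red squares, 5 non-EGFP libraries), with values under 0.2 drawn at 0.2. Secretory and tuft markers of the groups lie apart, whereas Lgr5, Olfm4, Mki67 and Fabp2 overlap.

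Stem cell and proliferation genes gave few calls with TMM scaling. Of 18 crypt base stem cell genes 1 was lower and 0 higher, with a median of 0.46. Of 22 proliferation genes 2 were higher and 0 lower, with a median of 0.35. These counts stand beside 8.07% of all genes higher and 8.54% lower. With total counts alone 4 stem cell genes were higher and 0 lower (median 1.42) and 8 proliferation genes higher and 0 lower (median 1.35). On that scale the all-gene median was 1.02, and 2787 of 12564 genes tested were higher and 457 lower. Lgr5, the R-spondin receptor that marks crypt base stem cells (chromosome 10, 115450311 to 115587780), lay at 9.101, 42.9 and 59.5 CPM in organoids and 30.1, 17.9, 38.99, 34.03 and 13.6 CPM in non-EGFP cells (log2 fold change of 0.49, SE 0.40, edgeR adjusted p = 0.335). The groups overlapped, and the 2 organoid libraries of experiment 3 (9.101 and 14.6 CPM) were lower than the other 4. With experiment 3 alone the sign turned, to −1.18. Olfm4, a secreted stem cell marker, gave 0.39 and −1.40 with experiment 3 alone. Slc12a2, a chloride cotransporter of crypt cells, was at 593 ± 234 CPM against 236 ± 51.1 CPM without overlap, under the fold limit at 1.33. Znrf3, a ubiquitin ligase that dampens Wnt signalling, was the only called member, at −2.38, and its groups overlapped. Mki67, expressed in dividing cells (chromosome 7, 135689784 to 135716361), lay at 83.8, 104 and 134 CPM and 76.4, 100.0, 56.4, 179 and 46.4 CPM (log2 fold change of 0.23, SE 0.28, edgeR adjusted p = 0.532), and non-EGFP library 4 was the highest of all 11. The value with experiment 3 alone was −0.09. Plk1, a mitotic kinase, and Mcm2, a subunit of the replication helicase, were higher by 2.43 and 2.59, each without overlap. Tyms, which makes thymidylate for DNA synthesis, went the other way at −1.63, under the limit. As a share of counts the stem list took 0.107 to 0.394% in organoids and 0.0584 to 0.114% in non-EGFP cells.

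Enterocyte genes were higher in organoids where they were called, and none of 3 lists had a member called lower. Of 15 brush border hydrolases 3 were higher and 0 lower (median 0.65), of 15 lipid absorption genes 4 and 0 (0.87), and of 15 nutrient transporters 3 and 0 (1.59), beside 8.07% of all genes higher. Fabp2, the intestinal fatty acid binding protein (chromosome 3, 122895072 to 122899506), lay at 2301, 5339.8 and 8422 CPM in organoids and 4053, 4883, 3268, 2164 and 4419 CPM in non-EGFP cells (log2 fold change of 0.49, SE 0.31, edgeR adjusted p = 0.222). The groups overlapped, and with experiment 3 alone the value was −0.66. Apoa4, an apolipoprotein of chylomicrons, lay at 1154, 1462 and 2270.3 CPM in organoids and 112, 133, 66.8, 77.8 and 351 CPM in non-EGFP cells. It was higher in every organoid library (log2 fold change of 3.43, SE 0.37, edgeR adjusted p = 2.22e-07) and by 4.04 without non-EGFP library 5, the highest of its group. Slc6a19, the apical transporter of neutral amino acids, was higher by 4.02 (153 ± 85.2 CPM against 8.67 ± 5.61 CPM). Scarb1, a lipid receptor, was higher by 5.45, or 6.25 without non-EGFP library 1. Treh, the brush border trehalase, was higher by 2.93. Sis, which encodes sucrase-isomaltase, and Slc5a1, the sodium-glucose transporter, lay above in every organoid library but under the fold limit, at 1.15 and 1.86. Lgals2, a galectin of enterocytes, was also under it, at −1.86.

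Genes that differ along the gut separated the groups in both directions. Fabp6, the ileal bile acid binding protein, lay at 0, 1.29 and 1.82 CPM in organoids and 1039, 1423, 1358, 2311 and 151 CPM in non-EGFP cells (log2 fold change of −9.93, SE 0.60, edgeR adjusted p = 7.65e-11). All sorted libraries were above all organoid libraries, and non-EGFP library 5 was the lowest of them. Slc51b, a subunit of the basolateral bile acid exporter, was lower by −2.90, and of the 7 tested bile acid and ileal genes these 2 were lower and 0 higher. Beside 8.54% of all genes lower and 8.07% higher, 2 of 7 genes of the proximal small intestine were higher and 0 lower. These were Cybrd1, the duodenal ferric reductase, at 44.1 ± 25.2 CPM against 1.24 ± 0.719 CPM (4.89), and the iron exporter gene Slc40a1 (3.02). S100g, a vitamin D dependent calcium binding protein of the duodenum, was higher by 3.47, with 1381 and 1501 CPM in experiment 1 and 201 and 204 CPM in experiment 3. Without experiment 1 its value was 2.27. Car4, a membrane carbonic anhydrase, was among the 10 largest falls, from 169.7, 233, 230.4, 162 and 222 CPM in the non-EGFP libraries to at most 1.95 CPM in organoids (log2 fold change of −7.43, SE 0.37, edgeR adjusted p = 6.68e-12). A mark for the gut region (prox) is given for organoids only, and the part of the region in these values cannot be told apart from culture.

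Genes of the fetal-like state, which regenerating epithelium takes up after injury, were partly higher in organoids. Of 15 tested of 19, 7 were higher, 0 lower and 8 not called (median 1.80), beside 8.07% of all genes higher. Of the 7, Anxa10 and Msln had 0 counts in non-EGFP cells. These passed the filter only through the organoids, which fixed their direction. The 7 include 5 genes at low mean levels in organoids (1.81 to 5.97 CPM), 3 of the 7 had groups that did not overlap, and with filterByExpr or an average of 10 or more normalized counts 2 of 7 tested were higher. Areg, an EGF receptor ligand, lay at 46.3, 87.8 and 233 CPM in organoids and 1.405, 2.23, 0, 0 and 0.714 CPM in non-EGFP cells (log2 fold change of 6.75, SE 0.60, edgeR adjusted p = 1.68e-08). The 2 libraries of experiment 3 (233 and 231 CPM) were the highest. Sprr1a, a cross-linked envelope protein, was higher by 4.63, with all sorted libraries at 0 CPM except library 5 at 5.35 CPM. Anxa10 had 0 counts in non-EGFP cells and was at least 21.6-fold higher in organoids (mean CPM over a floor of 3 counts over the group). The keratin genes Krt7 and Krt23 were not called and had negative values. Krt7 was at 155 ± 27.9 CPM in organoids against 176 ± 80.04 CPM (−0.19, but 0.80 with total counts alone, where the all-gene median was 1.02). Krt23 was at 38.5 ± 7.304 CPM against 85.8 ± 24.2 CPM (−1.15, adjusted p = 0.000498, edgeR).

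Transcripts of immune cells were found in the sorted cells and were at or near 0 in organoids. In organoids 17 of 20 lymphocyte genes had 0 counts. Of the 12 that passed the filter on low counts, 10 were among these and passed only through the non-EGFP libraries, which fixed their direction, so that no count of calls is read from this list. The list summed to 132 to 780 CPM in non-EGFP libraries and to 0 to 2.80 CPM in organoids. Gzma, a granzyme of intraepithelial lymphocytes, held 304, 95.9, 118, 55.9 and 79.6 CPM in the non-EGFP libraries and 0 in all 6 organoid libraries, at least 498-fold lower. Non-EGFP library 1 was the highest, and without it the bound was 333. Ccl5, a chemokine, Nkg7, of cytotoxic granules, and Cd3d, of the T cell receptor complex, were at least 343-, 101- and 58.5-fold lower, or 209.9-, 66.99- and 35.3-fold without non-EGFP library 1. Of 14 myeloid, mast and B lineage genes 11 passed the filter, and 7 were lower and 1 higher, beside 8.54% and 8.07% of all genes. Of the 7, 5 had 0 counts in organoids and passed only through the non-EGFP libraries, which fixed their direction. No count of calls is therefore read from this list either. The mast cell protease genes Mcpt1 and Mcpt2 were at 0 counts in organoids and at least 82.4- and 58.9-fold lower. Jchain, of antibody-secreting cells, was called but rested on non-EGFP library 1 (42.1 CPM), while the other 4 libraries held 0 to 0.696 CPM. The 1 higher was Csf1r, a growth factor receptor of macrophages, with 13 counts over all organoids and 1 in non-EGFP cells, a ratio of 12.3 (95% exact counting interval 1.85 to 525), and it lost the call without organoid library 2 or 3 or non-EGFP library 1 or 2. The counts of genes lower in organoids therefore include genes of cells that are not epithelial. Of 17 stromal, endothelial, glial and red cell genes 6 passed the filter, of which 3 were higher and 2 lower. The 3 higher, Acta2, Col1a2 and S100b, had 0 counts in non-EGFP cells and passed only through the organoids, which fixed their direction. The calls of this list are likewise not read as a count. Acta2, smooth muscle actin, was at least 25.7-fold higher in organoids, at 2.59 to 12.1 CPM. The 2 lower were Vim, which encodes vimentin, at 4.56 ± 2.49 CPM against 32.7 ± 27.5 CPM (log2 fold change of −2.82, SE 0.47, edgeR adjusted p = 6.7e-05), and the endothelial gene Pecam1 (−2.85). Non-EGFP library 2 was the highest for Vim and non-EGFP library 3 for Pecam1, and without these the values were −2.15 and −1.82, the latter no longer called. With total counts alone neither was called (−1.86 and −1.88).

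Interferon-induced and antimicrobial genes were lower in organoids where they were called, apart from the MHC class I heavy chain H2-K1, which was higher. Of 16 tested MHC class I and interferon genes 1 was higher and 8 lower (median −1.34), beside 8.07% of all genes higher and 8.54% lower. Of the 8, Ifit3 had 0 counts in organoids and passed the filter only through the non-EGFP libraries, which fixed its direction. H2-K1, a class I heavy chain, lay at 759.6, 932 and 1230.0 CPM in organoids and 206, 266, 228, 126 and 164 CPM in non-EGFP cells (log2 fold change of 2.25, SE 0.21, edgeR adjusted p = 3.72e-08). Psmb8, an immunoproteasome subunit, went the opposite way, with 6.73, 12.3 and 15.4 CPM and 249, 161, 149, 141 and 287 CPM (log2 fold change of −4.07, SE 0.26, edgeR adjusted p = 1.66e-10). Oas1a, which senses double-stranded RNA, was lower by −3.35. Reg3g, a lectin that binds gram-positive bacteria and that microbes induce, lay at 92.8, 170.2 and 297 CPM in organoids and 2657, 3884, 4537, 2824 and 2779.6 CPM in non-EGFP cells (log2 fold change of −4.25, SE 0.28, edgeR adjusted p = 3.48e-10). Its relative Reg3b was not called at −1.51 (adjusted p = 0.0496, edgeR). Organoids of experiment 1 held 1677 and 1640.0 CPM of Reg3b, within the sorted range, and those of experiment 3 64.3 and 36.1 CPM. Reg4 was lower by −2.35. Of 12 tested antimicrobial and microbiota-responsive genes 4 were lower and 0 higher, with a median of −1.37, beside 8.54% of all genes lower. Of the 4, Saa1 had 0 counts in organoids, so that its direction was fixed in the same way.

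Genes of glycolysis and the hypoxia response had the highest share of members called higher among the 39 lists described. Of 19, 15 were higher and 1 lower, beside 8.07% and 8.54% of all genes. These 19 had a median of 3.22 against 0.03 for all genes. The groups did not overlap for 18 of them, beside 25.5% of all genes (14.5% on the higher side). Their summed level was 9774 ± 2608 CPM (SD, n = 6) for organoids against 1085 ± 198 CPM (SD, n = 5) for the non-EGFP group, a ratio of 9.01. Ldha, lactate dehydrogenase A, lay at 3198, 3612 and 4876 CPM in organoids and 225, 185, 148, 148 and 316 CPM in non-EGFP cells (log2 fold change of 4.21, SE 0.25, edgeR adjusted p = 7.1e-11). Slc16a3, the exporter of lactate that hypoxia induces, lay at 83.1, 146 and 175 CPM and 1.12, 0, 0, 0 and 1.07 CPM (log2 fold change of 7.66, SE 0.43, edgeR adjusted p = 3.23e-11). All organoid libraries were high for both, and 3 sorted libraries had no Slc16a3 count. Bnip3, a mitophagy receptor, was higher by 4.82. Egln3, a prolyl hydroxylase that itself marks hypoxia, was higher by 5.34, or 6.26 without non-EGFP library 3. The glycolytic enzyme genes Tpi1, Pgk1 and Pkm were higher by 3.63, 3.22 and 3.18. Hk2, hexokinase 2, was the 1 member that was lower, with 7.401, 13.8 and 17.4 CPM in organoids and 89.6, 105, 93.3, 74.1 and 81.4 CPM in non-EGFP cells (log2 fold change of −2.76, SE 0.25, edgeR adjusted p = 1.8e-08).

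The promoters of these genes are shown because hypoxia-inducible factors are known to bind the core motif ACGTG. The letters ACGTG, on either strand, were found between 250 bases before and 50 after the start in 13 of the 18 members with a RefSeq promoter (72.2%), in 29.3% of the 9772 tested genes with one and in 21.8% of all 27025. Eno1, Pdk1, Pfkl, Pfkp and Tpi1 have no match in this window, while Hk2, the member that was lower, has 2. The windows shown are all of members that were higher. A match is a description of letters, not a binding site. The windows below are in lower case with the match in capitals, 5′ to 3′ on the strand of the gene, from RefSeq on GRCm38.p6. They lie at chr7:46845760-46845784 (Ldha), chr11:120949043-120949067 (Slc16a3), chr7:138909599-138909623 (Bnip3), chrX:106186959-106186983 (Pgk1) and chr12:54204089-54204113 (Egln3). CACGT is the motif read on the opposite strand, and Ldha has 5 matches, of which 1 is shown.
Ldha: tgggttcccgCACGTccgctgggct
Slc16a3: tgcgcgggggACGTGccgcgcgacg
Bnip3: cacgcgccgcACGTGccacacgctc
Pgk1: atggaagtagCACGTctcactagtc
Egln3: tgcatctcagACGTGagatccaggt

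**Figure D3:**
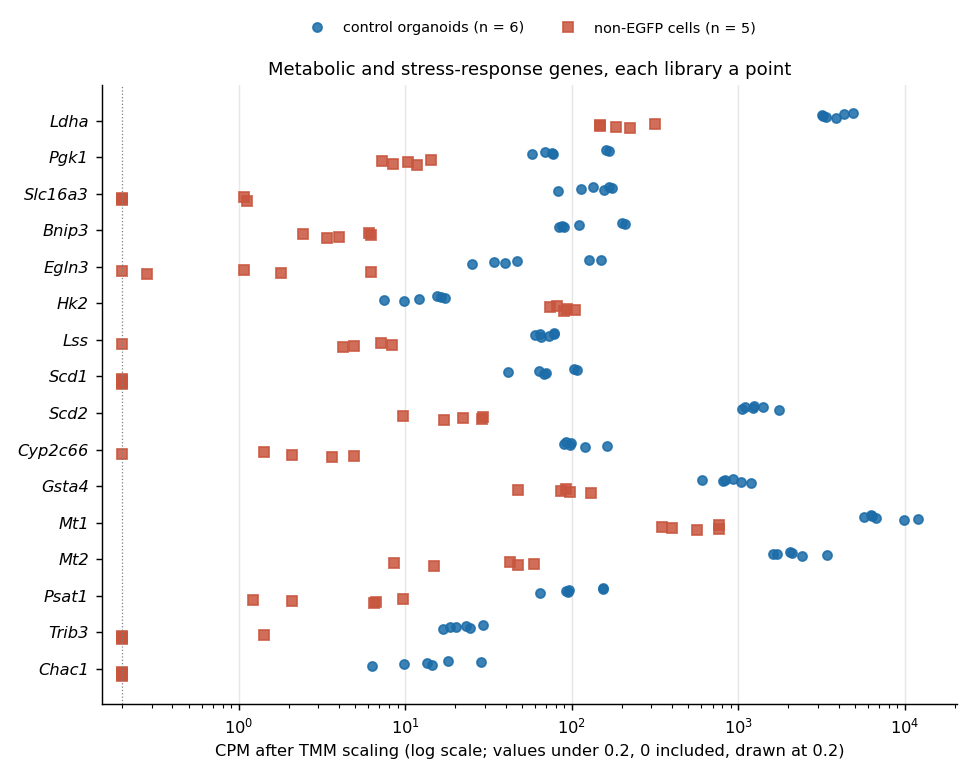
CPM of metabolic and stress-response genes on a log scale, 1 point per library (blue circles, 6 control organoid libraries; red squares, 5 non-EGFP libraries), with values under 0.2 drawn at 0.2. All 16 genes shown separate the groups, and Hk2 is the only one lower in organoids.

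Genes of the amino acid response and serine synthesis were higher in organoids. Of 12, 9 were higher and 0 lower (median 2.94), beside 8.07% of all genes higher. The groups did not overlap for 11, beside 25.5% of all genes. Psat1, an enzyme of serine synthesis, lay at 64.2, 95.7 and 154 CPM in organoids and 6.46, 6.69, 2.09, 1.22 and 9.63 CPM in non-EGFP cells (log2 fold change of 4.20, SE 0.36, edgeR adjusted p = 9.82e-09), and every organoid library was above every sorted one. Chac1, which breaks down glutathione, had 0 counts in non-EGFP cells and was at least 54.7-fold higher. It passed the filter only through the organoids, which fixed its direction in the counts above. Outside this list, Slc7a11, the cystine transporter, likewise had 0 counts in non-EGFP cells and was at least 44.01-fold higher. Trib3, a pseudokinase induced by ATF4, was at 22.1 ± 4.500 CPM in organoids and at 0 in all sorted libraries but library 5 (1.43 CPM), a log2 fold change of 5.71, or 8.44 without that library. Stc2, a secreted glycoprotein that is also stress-induced, was at 0 counts in non-EGFP cells and at least 186-fold higher. Asns, asparagine synthetase, lay above in every organoid library but under the fold limit at 1.73 (184 ± 80.2 CPM against 55.3 ± 20.8 CPM).

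The motif TGATGNAA, to which ATF4 and C/EBP dimers are known to bind, was searched on both strands of the same window. It was found in 4 of the 12 amino acid response genes (33.3%), namely Asns, Trib3, Chac1 and Vldlr, in 2.66% of tested genes and in 4.51% of all genes. Windows of 3 of these, with the match in capitals, lie at chr6:7693215-7693242 (Asns), chr2:152344029-152344056 (Trib3) and chr2:119351039-119351066 (Chac1). In Trib3 and Chac1 the match is read on the opposite strand.
Asns: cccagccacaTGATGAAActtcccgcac
Trib3: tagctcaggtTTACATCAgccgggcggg
Chac1: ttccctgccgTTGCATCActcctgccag

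Cholesterol synthesis genes were higher in organoids where they were called. Of 22 cholesterol synthesis and uptake genes 8 were higher and 0 lower (median 1.75), beside 8.07% of all genes higher. The groups did not overlap for 20, beside 25.5% of all genes (14.5% on the higher side). With total counts alone 20 were higher, beside 2787 of 12564 genes tested on that scale. Lss, lanosterol synthase, lay at 60.4, 69.1 and 77.96 CPM in organoids and 4.21, 4.91, 8.35, 0 and 7.14 CPM in non-EGFP cells (log2 fold change of 3.72, SE 0.34, edgeR adjusted p = 2.41e-08). Mvd, of the mevalonate pathway, was higher by 3.70, and Cyp51, a sterol demethylase, by 2.73. For Lss and Mvd non-EGFP library 4, the shallowest sorted library, had 0 counts. Outside this list and among the 10 largest rises, Scd1, a stearoyl-CoA desaturase, lay at 41.2, 68.6 and 107 CPM in organoids, had 0 counts in all 5 sorted libraries and was at least 272-fold higher. Its paralog Scd2 lay at 1049, 1236 and 1751 CPM in organoids and 17.1, 29.01, 22.3, 29.2 and 9.63 CPM in non-EGFP cells (log2 fold change of 5.96, SE 0.29, edgeR adjusted p = 6.68e-12).

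Metallothioneins and genes of xenobiotic metabolism were among the abundant transcripts of organoids. Mt1 and Mt2 encode small proteins that bind zinc and copper. Mt1 lay at 5674, 6565 and 11936 CPM in organoids and 568, 768, 399, 348 and 763 CPM in non-EGFP cells (log2 fold change of 3.78, SE 0.29, edgeR adjusted p = 2.23e-09). Mt2 lay at 1622, 2077 and 3393 CPM and 14.9, 47.8, 59.2, 8.51 and 42.8 CPM (log2 fold change of 5.97, SE 0.40, edgeR adjusted p = 3.89e-10), so that the groups were far apart for both. Of 19 tested xenobiotic metabolism genes 12 were higher and 0 lower (median 2.43), beside 8.07% of all genes higher. Cyp2c66, a cytochrome P450 of the intestine, was at 110.1 ± 27.8 CPM against 2.42 ± 1.91 CPM (5.29), and the glutathione transferase genes Gsta4 and Gsta2 were higher by 3.29 and 5.85. Cyp2c29 differed within the organoids, with 263 to 454 CPM in experiments 1 and 2 and 33.98 and 45.8 CPM in experiment 3. In non-EGFP cells it was at 0 except in library 2 (1.79 CPM), and its log2 fold change was 9.23, or 12.03 without that library.

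Target genes of the signals that the medium supplies or blocks gave calls in both directions, beside 8.07% of all genes higher and 8.54% lower. Of 11 tested Wnt targets 2 were higher and 1 lower, with a median of −0.51. With total counts alone this median was 0.43, beside the all-gene median of 1.02 on that scale. Myc, a driver of growth, and Sp5, a Wnt-induced repressor, were higher by 2.25 and 2.54, and Myc lost the call without organoid experiment 3 (1.96). Of 7 BMP targets, with a median of −0.24 (0.70 with total counts alone, also under 1.02), 1 was lower and 0 higher. This was Bambi, a decoy receptor that BMP induces, at 1.21, 3.99 and 6.04 CPM in organoids and 20.2, 24.5, 68.2, 31.6 and 11.8 CPM in non-EGFP cells (log2 fold change of −2.98, SE 0.46, edgeR adjusted p = 2.46e-05), and −2.27 without non-EGFP libraries 3 and 4. Of 9 ERK target and feedback genes 3 were higher and 1 lower (median 1.67). Etv4, a transcription factor that ERK induces, was at 3.29 to 10.1 CPM in organoids and had 1 count in non-EGFP cells, a ratio of 68.4 (95% exact counting interval 11.9 to 2737). Spry2, a feedback inhibitor, went the other way (−3.11), and its sorted libraries held 62.9, 0, 4.87, 31.6 and 45.3 CPM, on both sides of the organoid range of 2.43 to 4.19 CPM.

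RNA kept in the nucleus and RNA of mitochondria, which are known to shift with the way cells and RNA are prepared, also differed. Malat1, a nuclear noncoding RNA, lay at 278, 838 and 1104 CPM in organoids and 10058, 14337, 16015, 13206 and 12730.2 CPM in non-EGFP cells (log2 fold change of −4.14, SE 0.31, edgeR adjusted p = 1.93e-09). Neat1, of nuclear paraspeckles, was lower by −2.64. Both were low in all organoid libraries. Mitochondrially encoded protein genes took 0.968 to 1.49% of counts in organoids and 1.41 to 1.95% in non-EGFP cells. Of 11 tested 2 were higher and 3 lower, beside 8.07% and 8.54% of all genes. The median of this list was −0.54, and 0.43 with total counts alone, where the all-gene median was 1.02. mt-Cytb, which encodes cytochrome b, was lower by −2.99. Of 80 ribosomal protein genes 3 were higher and 3 lower (median 0.31), such as Rpsa at 2.32 and Rps29 at −3.97. These are 3.75% each way, under the shares of all genes. Processed copies of ribosomal protein genes elsewhere in the genome make single members uncertain. The part of RNA preparation in the results above was not tested.

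**Figure D4:**
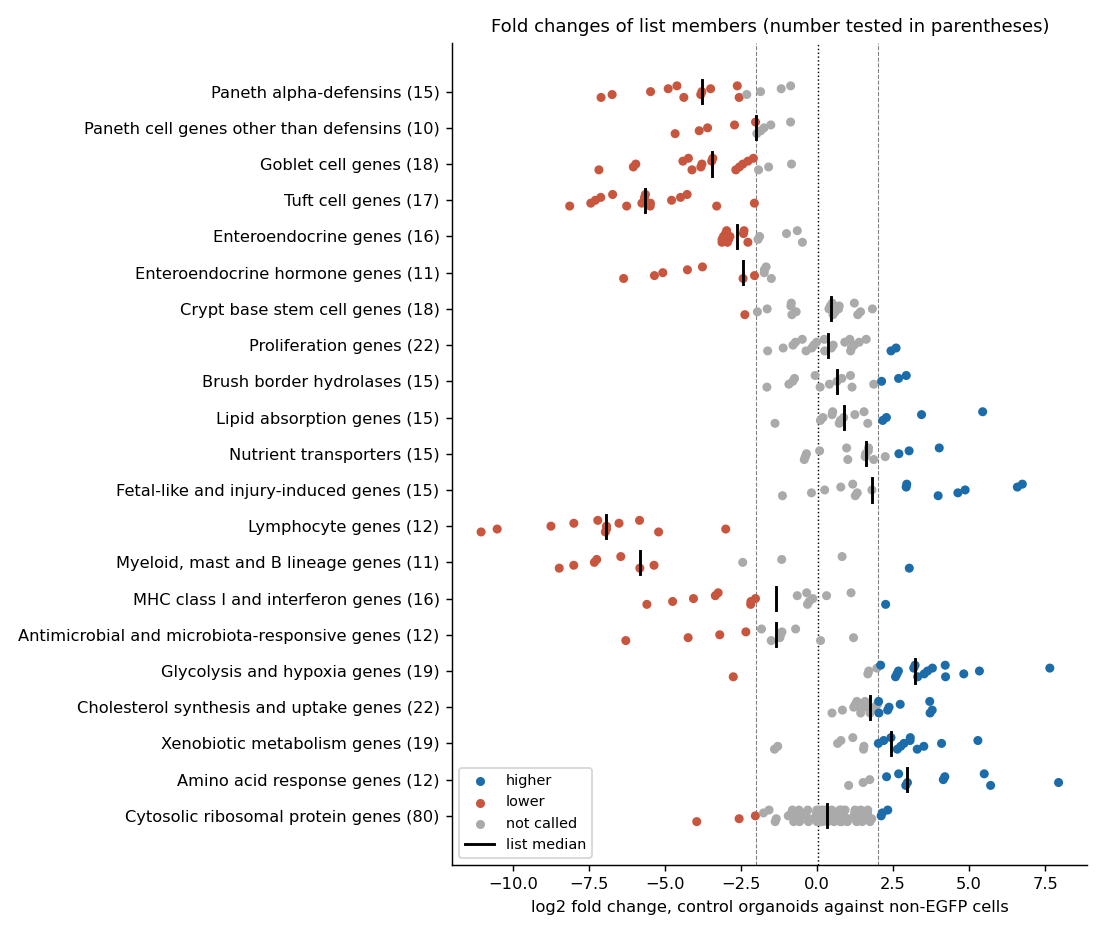
Log2 fold change of each tested list member, control organoids against non-EGFP cells (blue, higher; red, lower; grey, not called), with the list median as a black bar, the median of all genes (0.03) as a dotted line and the limits of −2 and 2 dashed. Tuft genes lie wholly on the lower side, glycolysis genes on the higher side apart from Hk2.

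Organoids were not uniform among themselves, and experiment 3 stood apart for several of the genes above. The genes of this paragraph were chosen for that pattern after their values were seen, with 2 libraries per experiment, and carry no test. Isx is a homeobox repressor of the enterocyte and is known to repress Bco1, which cleaves beta-carotene, and Scarb1. Its level was 78.3 and 77.5 CPM in experiment 3, 0 to 0.549 CPM in experiments 1 and 2, and 35.4, 41.95, 18.8, 37.7 and 36.4 CPM in non-EGFP cells. Bco1 was at 149, 134, 78.5 and 85.8 CPM in experiments 1 and 2, at 4.25 and 4.87 CPM in experiment 3 and at 6.74, 9.82, 1.39, 3.65 and 3.21 CPM in non-EGFP cells. Scarb1 had 27.9 to 39.96 CPM in experiments 1 and 2 and 6.67 and 7.31 CPM in experiment 3. Experiment 3 thus shared the low Bco1 of the sorted cells and exceeded them in Isx. With experiment 3 alone Bco1 was at −0.15 and no longer called, in place of 3.83. Of the other retinoid genes, those called were Aldh1a1, which makes retinoic acid, at 3.79, and Cyp26b1, which degrades it, at least 5.77-fold higher, at 3.64 and 5.36 CPM in experiment 3 and 0 to 0.561 CPM in the other organoids. Experiment 3 was also lowest for Lgr5, Olfm4 and Reg3b and highest for Areg and Egln3, the last with 127 and 149 CPM against 25.1 to 46.6 CPM. The experiments differ in mouse and in the stated sex, which for experiment 1 goes against its counts of Xist and Ddx3y. The parts of mouse and sex were not tested.

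**Figure D5:**
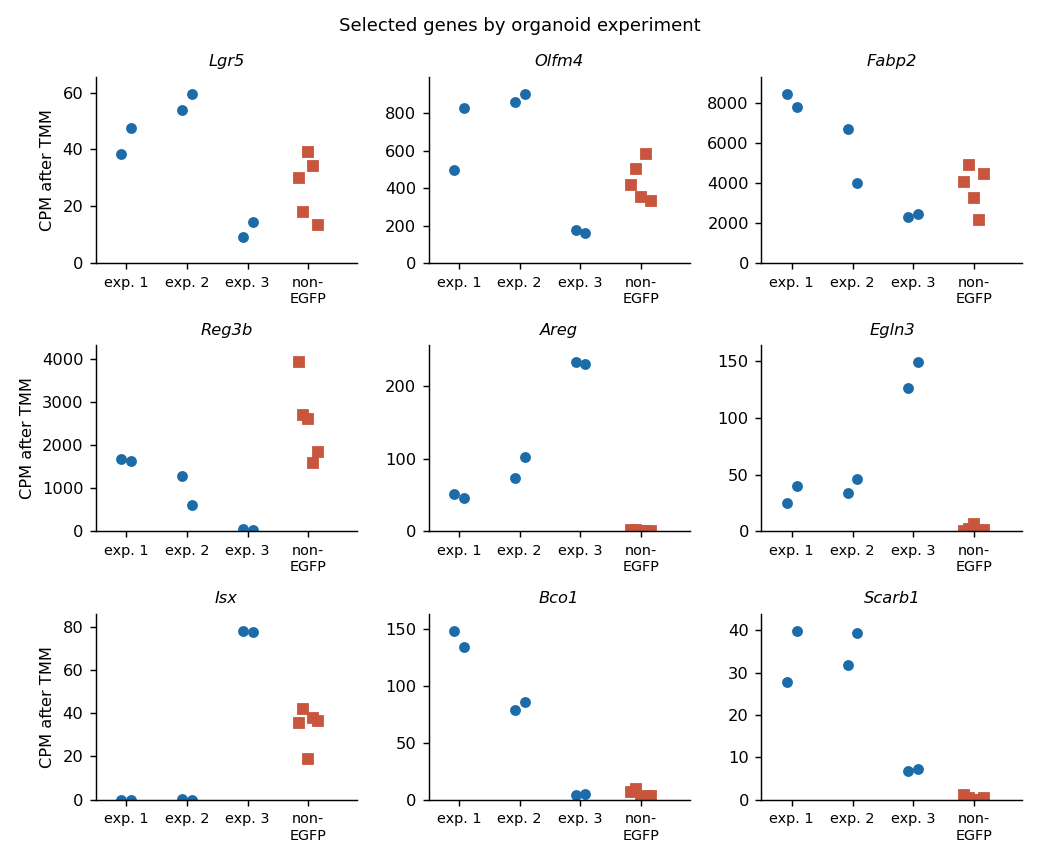
CPM on a linear scale of 9 genes in the 2 libraries of each organoid experiment (blue circles) and in the 5 non-EGFP libraries (red squares). Isx is high and Bco1 and Scarb1 low in experiment 3 among organoids, and Egln3 and Areg are highest there.

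The other groups of the series give a side view of the same genes on 1 scale, TMM over all 22 libraries, with levels set side by side and no test. Organoids treated with GDNF held a mean of 3841 CPM of Ldha and control organoids one of 4117 CPM. Ret-EGFP+ cells, sorted and lysed like the non-EGFP cells, held 75.02 CPM of Ldha beside 222 CPM in non-EGFP cells. Mt2 was at 4.25 and 37.4 CPM in Ret-EGFP+ and non-EGFP cells and at 2406 CPM in control organoids, and Scd1 had 0 counts in both sorted groups. Malat1 was at 32969 CPM in Ret-EGFP+ cells, 14397 CPM in non-EGFP cells and 815 CPM in control organoids. Low levels of Ldha, Mt2 and Scd1 and high levels of Malat1 were shared by both sorted populations, while other traits were not. Defensins took a median of 0.564% of counts in Ret-EGFP+ cells and 23.1% in non-EGFP cells, and tuft genes 0.00405% and 0.123%. The part of sorting and lysis in these values was not tested. Car4 was at 185 CPM in Ret-EGFP+ cells, 221 CPM in non-EGFP cells and 1.12 CPM in control organoids. With GDNF-treated organoids in place of controls 1082 genes were higher and 1128 lower.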

How the data were processed

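Transcripts were counted at their 3′ end with a 12-nucleotide library barcode and an 8-nucleotide molecular identifier. Per the labels and methods, alignment used STAR 2.7.8a and GRCm38, and BRB-seqTools 1.4 counted per gene. The authors deposited raw counts for 31053 Ensembl identifiers, of which 31011 have a symbol in GENCODE M21. The tables of organoids and of sorted cells were joined on the identifier, and 10 counts of a TdTomato reporter entry were left out. Each library's group and number were read from the sheets of samples beside these tables, and sorted libraries are numbered in sheet order.

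Counts were tested with edgeR 4.0.16 (R 4.3.3, quasi-likelihood, TMM, Benjamini-Hochberg over 12604 genes) on the 11 libraries, keeping genes whose counts summed to 5 or more and whose normalized counts averaged 1 or more, as in the study. An adjusted p under 0.1, the threshold of the study, and a log2 fold change of at least 2 in size made a call. The standard error (SE) was derived as the size of the log2 fold change over the root of its F statistic. Folds against 0 counts set the mean CPM of the other group over that of 3 counts in the whole group at 0 (0.262 CPM in organoids, 0.276 CPM in non-EGFP cells), and intervals and floors cover counting error only, which is too narrow where counts were not deduplicated. As libraries of 1 mouse entered as separate samples, p values measure the spread between libraries and may be too small. Functions were tested on simulated data.

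The groups, the 39 gene lists and the genes named were chosen with earlier results of these data known. Named by rule were the 5 marker genes, Xist, Ddx3y and Ret, the 10 most abundant genes of each group, the 10 largest rises and falls without overlap and a mean of at least 50 counts, and up to 4 called members per direction and 3 abundant uncalled members of each list; a part of these is described. Atoh1, Dclk1, Trpm5, Chgb, Ldha, Tpi1, Pgk1 and Pkm, and the genes of the closing observations, lie outside this rule, since their values were known when they were picked. Lists are described by counts and medians, with no test. Lengths are medians over the GENCODE transcripts of a gene, and promoters are RefSeq windows.

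Alternatives were DESeq2 1.42.0, other scalings and filters, limma 3.58.1 on ranks, other thresholds, thinning, summed experiments, GDNF-treated organoids, all 22 libraries in the fit, and leaving out libraries, experiments or plates. A correction of organoid counts for shared identifiers and the fit without non-EGFP libraries 3 and 4 were added after seeing the data.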

Additional observations from a re-analysis of the deposited data

Results flagged for a closer look

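Single libraries lay apart from the others of their group (a gap to the nearest value above the 95% limit of Dixon's test) in 21 of 234 groups of values examined for the genes named (8.97%). That limit holds for normal values, so the share to be met by chance is not known here. For Sprr1a, Cyp2c29, Trib3, Etv4 and Csf1r the other non-EGFP libraries were at 0 CPM, so that any count was flagged. In non-EGFP library 1, Gzma (304 CPM), Jchain (42.1 CPM) and Etv4 (0.281 CPM, 1 count) were high, and Alox5ap (77.5 CPM) was low. Library 1 thus had the highest lymphocyte and plasma cell transcripts and the lowest Alox5ap of the sorted libraries. In non-EGFP library 2, mt-Cytb (18626 CPM), Vim (80.3 CPM) and Cyp2c29 (1.79 CPM) were high. In non-EGFP library 3, Egln3 (6.27 CPM) and Pecam1 (9.05 CPM) were high, and Isx (18.8 CPM) and Aldh1a1 (5.57 CPM) were low. In non-EGFP library 4, Elovl6 (86.3 CPM) was high and Cybrd1 (0 CPM) low. In non-EGFP library 5, Cck (583 CPM), Apoa4 (351 CPM), Pkm (123 CPM), Sprr1a (5.35 CPM), Trib3 (1.43 CPM), Csf1r (0.357 CPM, 1 count) and Xist (3.21 CPM) were high. Among organoids, Ndufa3 (269 CPM) was high in library 2, of experiment 1.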

How the results depend on the processing

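With 1017 genes higher and 1076 lower in organoids, leaving out 1 organoid or non-EGFP library in turn gave 955 to 1143 higher and 1017 to 1115 lower. Total counts alone gave 2787 and 457, ranks within each library (limma) 267 and 320, filterByExpr 574 and 407, an average of 10 or more normalized counts 564 and 471, no fold limit 3161 and 3077, and a log2 fold change of at least 3 430 and 552. Where the groups also had to be free of overlap, 734 and 482 remained. All other settings stayed within 1.5 times, among them DESeq2 (984 and 950), no filter (1251 and 1464) and experiment 3 alone (689 and 737). Of 102 called genes named, 82 kept their call in all 31 refits with the same threshold and 20 lost it in at least 1. The sign turned for 7 genes. With organoids of experiment 3 alone the log2 fold changes were −1.18 for Lgr5, −1.40 for Olfm4, −0.094 for Mki67, −0.66 for Fabp2, 1.18 for Isx, −0.15 for Bco1 and 0.053 for Krt7. Isx was also at 0.52 with total counts alone, 0.18 without experiment 1 and 0.18 without experiment 2, Olfm4 at −0.10 without experiment 2, and Mki67 at −0.011 with GDNF-treated organoids in place of controls. Krt7 was at 0.80 with total counts alone, 0.11 with ranks and 0.41 with GDNF-treated organoids. The cause was not tested. Medians of the BMP and Wnt target, keratin, mitochondrial, unfolded protein response and GDNF receptor lists turned from negative to positive with total counts alone. The all-gene median also moved on that scale, from 0.03 to 1.02. These medians, and the values of Isx and Krt7 with total counts alone, are therefore read against 1.02. No paired analysis was possible because the groups came from different mice and tables, and their replicate numbers mark no shared source. Group and preparation coincide, so no depth would separate them, and genes with fewer than 3 counts in a group are known only to the floor.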

Other observations

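The 5 genes of this paragraph were picked after their values were seen because they were higher in organoids, and they stand for no pathway as a whole. Khk, the kinase that commits fructose to metabolism, lay at 608, 949 and 1170.5 CPM in organoids and 145, 123, 107, 89.9 and 157 CPM in non-EGFP cells (log2 fold change of 2.86, SE 0.22, edgeR adjusted p = 2.53e-09). Tkfc, which phosphorylates the glyceraldehyde made from fructose, and Pklr, a pyruvate kinase, were higher by 3.93 and 3.74. Fasn, fatty acid synthase, and Elovl6, a fatty acid elongase, were higher by 3.05 and 2.85. For all 5 genes every organoid library lay above every non-EGFP library.

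Another 3 genes, of short transcripts, were picked in the same way because they were lower in organoids. Atp5k, a subunit of ATP synthase, lay at 184, 234 and 285 CPM in organoids and 1821, 2444, 1756, 1506 and 2755 CPM in non-EGFP cells (log2 fold change of −3.13, SE 0.21, edgeR adjusted p = 3.48e-10). Ndufa3, of respiratory complex I, and Anapc13, of the anaphase-promoting complex, were lower by −2.69 and −2.70. With total counts alone Ndufa3 and Anapc13 were at −1.73 and −1.73 and no longer called.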
